A study of Mus musculus with 7 samples.

Results

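The keratins and mesothelial genes comprised 9 genes, chosen by symbol with earlier results of these data in view: the simple-epithelium keratins Krt7, Krt8, Krt18 and Krt19, the mesothelial genes Upk3b, Msln and Wt1, and the epithelial adhesion genes Cdh1 and Epcam. All 9 were found among 19505 named genes, each with 1 probe set, on an Affymetrix Clariom S mouse array (a 1-colour expression array). The deposited values were log2 signals, and each was read on all 7 arrays. Mouse embryonic fibroblasts (MEFs) had received retroviruses for Gata4 and Tbx5 (GT) plus a form of Mef2c, and were collected after 1 week. GT/M1 carried isoform 1, GT/M2 carried isoform 2 and GT/M6 carried isoform 6, while GT/M2TAD carried isoform 2 with the MyoD transactivation domain attached. Another 2 transduced arrays carried control siRNA (siCtrl) or siRNA against Ep300 (siEp300), which encodes the histone acetyltransferase p300. Their titles name GT/M2 but their source names give GT/M2TAD, so the Mef2c form of these 2 arrays is not settled. The MEF array held fibroblasts labelled as non-treated. The sources used here give no harvest time for it, and no strain or embryonic age for any array. Each of the 7 groups had 1 array, so there was no spread between replicates, no test and no p-value, and every difference below is between single arrays. Virus, factors and time in culture cannot be told apart in a difference from the MEF array.

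Keratins are intermediate filament proteins that assemble as pairs of a type I chain (here Krt18 and Krt19) with a type II chain (here Krt7 and Krt8). Simple epithelia and mesothelium, the epithelial lining of the body cavities and of the heart's surface, carry these 4 chains, while fibroblast filaments are built of vimentin. Msln encodes the surface glycoprotein mesothelin, Upk3b encodes uroplakin 3b, and Wt1 encodes a zinc finger transcription factor of mesothelium and epicardium. Cdh1 encodes E-cadherin and Epcam an epithelial cell adhesion molecule.

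Krt8 and Krt18, which encode a well-known filament pair, lie next to each other on chromosome 15, with 0 protein-coding genes between them in the RefSeq annotation of GRCm38.p6. Krt7 lies on the same chromosome. The 250 bases before the annotated start of these 3 genes are shown because Krt8 and Krt18 are neighbours and Krt7 is the other type II chain of the set. They come from RefSeq (GRCm38.p6): chr15:102027966-102028215 (+ strand) for Krt18, chr15:102004343-102004592 (- strand) for Krt8 and chr15:101412153-101412402 (+ strand) for Krt7, each written 5′ to 3′. Capitals mark a match to the motif AGATAA of the Gata family, to the motif AGGTGT of T-box factors or to the Mef2 motif, which is CTA followed after any 4 bases by TAG, each searched on both strands.
Krt18: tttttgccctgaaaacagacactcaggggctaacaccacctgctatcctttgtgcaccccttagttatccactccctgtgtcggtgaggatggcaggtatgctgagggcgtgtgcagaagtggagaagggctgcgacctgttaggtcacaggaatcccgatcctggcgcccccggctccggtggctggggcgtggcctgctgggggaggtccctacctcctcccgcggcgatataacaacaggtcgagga
Krt8: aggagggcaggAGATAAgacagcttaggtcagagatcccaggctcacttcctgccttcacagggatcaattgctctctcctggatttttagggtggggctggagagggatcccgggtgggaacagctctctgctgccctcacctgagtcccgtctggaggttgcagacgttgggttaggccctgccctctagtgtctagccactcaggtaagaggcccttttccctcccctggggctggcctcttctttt
Krt7: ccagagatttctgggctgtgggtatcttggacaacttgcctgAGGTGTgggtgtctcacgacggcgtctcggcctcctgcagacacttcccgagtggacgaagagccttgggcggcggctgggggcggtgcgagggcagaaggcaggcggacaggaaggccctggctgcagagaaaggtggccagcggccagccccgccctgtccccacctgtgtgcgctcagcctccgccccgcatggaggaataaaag
The Krt18 stretch held 0 matches to the 3 motifs. Krt8 held 1 AGATAA, starting 239 bases before the start, and Krt7 held 1 AGGTGT, starting 208 bases before it. In promoter windows of the same length, 9.99% of 32851 held AGATAA, 11.8% held AGGTGT and 3.20% held the Mef2 motif. Promoters of 5 of the 9 genes were matched. Among the other two, Epcam held AGGTGT starting 18 bases before the start, overlapping a CAGGTG that starts 19 bases before it, and Upk3b held 0 matches to the 3 motifs. CAGGTG, the E-box form bound by Snail factors, occurred in Krt7, Krt8, Krt18 and Epcam and in 17.2% of all windows. These are matches of letters and say nothing of binding.

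The arrays were first checked as a whole. Array medians over named genes lay between 5.38 and 5.71. The 95th percentile of 5222 negative-control probes lay between 8.43 and 9.33, and 23.7% to 29.6% of named genes reached it on their array. Tbx5 was between 14.82 and 16.23 on the 6 transduced arrays and 5.72 on MEF, and Mef2c was between 18.32 and 18.87 against 8.24. Gata4 was between 3.57 and 5.09 on the transduced arrays and 4.22 on MEF, below the array medians throughout, so its probe set did not bear out the Gata4 label and no array's Gata4 transduction could be checked. The siRNA target Ep300 had 9.47 with siEp300 and 9.90 with siCtrl, less than 2-fold apart. Its signals on all arrays but siEp300 lay between 9.87 and 10.22. How far the siRNA lowered p300 was not tested. Of 8 cardiomyocyte markers, 6 to 8 were at least 2-fold higher on each transduced array than on MEF. Of 9 fibroblast markers, 6 to 8 were at least 2-fold lower on the arrays without siRNA, and 1 was lower on siCtrl and on siEp300. One other fibroblast marker was 2-fold higher on GT/M2TAD (Thy1) and on both siRNA arrays (Postn). On the MEF array 8 of those 9 fibroblast markers lay above the negative-control percentile. A gene is called 2-fold apart when its log2 difference is at least 1 in size and the higher of its signals reaches the median over named genes on its own array, the signal floor. Negative-control probes that reached the same floor were 2-fold apart in 26.8% to 54.2% of cases, depending on which of the 12 comparisons was read, so a call on a dim signal carries little weight.

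Across the 9 genes, Krt19 and Msln carried most of the variation, Krt18 varied with a pattern of its own, and the other 6 stayed low. The signals of Krt19 spanned 6.12 on the log2 scale over the 7 arrays, more than or as much as 98.5% of genes that reached the floor on any array. Msln spanned 5.46 and Krt18 2.82, which placed them at 97.4% and 84.4% in the same ranking. Every other gene of the set spanned less than Krt18, down to 0.84 for Krt8. Of these 6, only Krt7 reached the floor, on 4 arrays, and all 6 lay below the negative-control percentile on every array. A span of this size in a gene near background cannot be distinguished from array noise here, since no replicate was at hand.

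**Figure D1:**
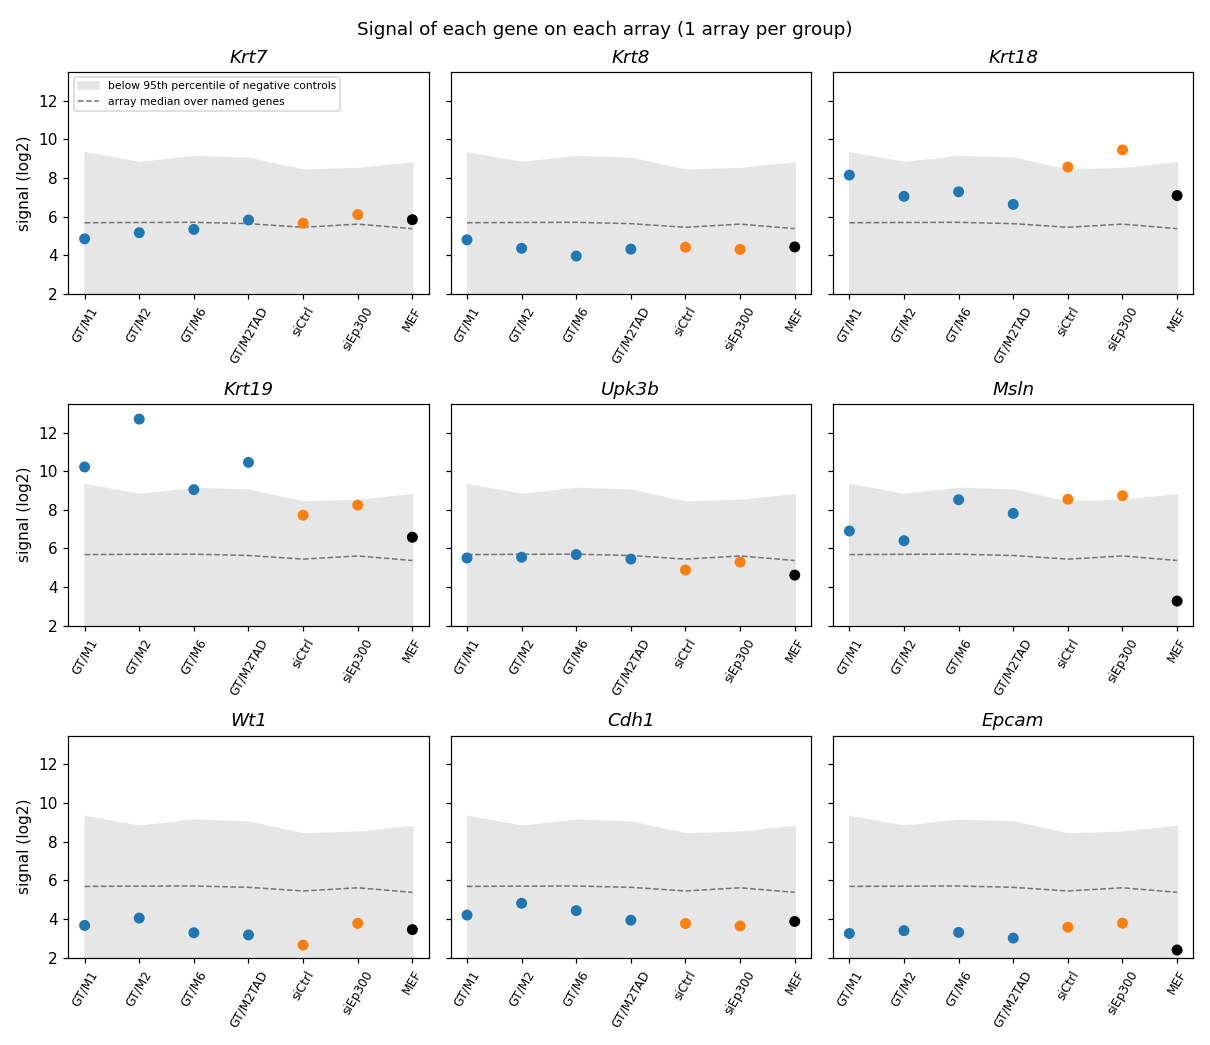
Log2 signal (vertical axis) of each of the 9 genes on each of the 7 arrays (horizontal axis), 1 point per array: blue for arrays without siRNA, orange for siCtrl and siEp300, black for MEF. The grey area ends at the negative controls' 95th percentile and the dashed line is the median over named genes. Krt19 rises above the grey area on GT/M1, GT/M2 and GT/M2TAD, Krt18 and Msln do so on siCtrl and siEp300, and the other 6 genes lie inside it on all 7 arrays.

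Krt19, the smallest type I keratin, had its highest signal on the GT/M2 array. Its signals were 10.22 with GT/M1, 12.70 with GT/M2, 9.05 with GT/M6, 10.46 with GT/M2TAD, 7.72 with siCtrl and 8.25 with siEp300, against 6.58 on MEF. MEF was the lowest of the 7 arrays, the siRNA arrays came next, and GT/M2 stood 2.24 above the next array. GT/M2TAD and GT/M1 were 0.24 apart, which is small beside the other gaps but cannot be set against any replicate spread. The differences from MEF were 3.64, 6.12, 2.47, 3.88, 1.14 and 1.66 in the same array order, all past the 2-fold rule. On the linear scale the GT/M2 signal was 69.5-fold that of MEF, but the MEF signal lay below the negative-control percentile. Set against that percentile instead, Krt19 was at least 14.9-fold higher on GT/M2 than on MEF, at least 3.15-fold higher on GT/M2TAD, and on GT/M1 at least 2.67-fold higher. In the GT/M6, siCtrl and siEp300 arrays the signal stayed below the percentile of its own array, so no such bound can be given there.

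Between the transduced arrays, Krt19 was among the genes furthest apart. It was 2.48 higher on GT/M2 than on GT/M1, where both signals lay above the negative-control percentile and 23 of 19505 genes had a larger positive difference. Its signal was 3.65 lower on GT/M6 than on GT/M2, and 2 genes had a lower difference. On GT/M6 it was also 1.17 lower than on GT/M1. On GT/M2TAD it was 2.24 lower than on GT/M2, with both signals above the percentile, but against the averaged signal of all 3 isoform arrays the difference was -0.20. The GT/M2TAD difference therefore rests on GT/M2 as comparator. siCtrl was 2.74 lower than GT/M2TAD and 4.98 lower than GT/M2, the form its title names, and siEp300 was 0.52 higher than siCtrl, under the 2-fold rule.

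Krt18, the type I partner of Krt8, did not follow Krt19. Its signals were 8.15 with GT/M1, 7.05 with GT/M2, 7.29 with GT/M6, 6.63 with GT/M2TAD, 8.57 with siCtrl and 9.46 with siEp300, against 7.09 on MEF. The siRNA arrays were the highest 2 of the 7, and GT/M2, GT/M6 and MEF lay within 0.24 of each other. The differences from MEF were 1.06 with GT/M1, 1.47 with siCtrl and 2.36 with siEp300, each past the 2-fold rule, and -0.04, 0.19 and -0.46 with GT/M2, GT/M6 and GT/M2TAD. The GT/M1 call depends on scaling, since that difference was 0.75 with median centring, 0.78 with quantile normalization and 0.87 with level-dependent centring. On siEp300 the signal lay above the MEF negative-control percentile as well, which makes it at least 1.57-fold higher than on MEF. Between transduced arrays Krt18 was 1.10 lower on GT/M2 than on GT/M1 and 1.93 higher on siCtrl than on GT/M2TAD. On siEp300 it was 0.89 higher than on siCtrl, under the 2-fold rule, while the median gene was 0.14 higher.

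The type II chains gave no counterpart to these differences. Krt8 had signals of 4.80 with GT/M1, 4.36 with GT/M2, 3.96 with GT/M6, 4.32 with GT/M2TAD, 4.42 with siCtrl and 4.30 with siEp300, against 4.43 on MEF. All 7 lay below the array medians, and between 22.6% and 42.8% of negative-control probes were at or below them. No conclusion on presence or absence of Krt8 transcript follows from a probe set at that level. Krt7 had signals of 4.85 with GT/M1, 5.17 with GT/M2, 5.34 with GT/M6, 5.83 with GT/M2TAD, 5.66 with siCtrl and 6.11 with siEp300, against 5.84 on MEF. GT/M1 was lowest and siEp300 highest. The GT/M1 difference of -0.99 lay just inside the 2-fold limit and passed it under other scalings, at -1.18 with level-dependent centring and -1.30 with either median centring or quantile normalization. In the other 11 comparisons Krt7 differed by between -0.67 and 0.66, and was not called.

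Of the 3 mesothelial genes, Msln was the one called apart from MEF. Its signals were 6.91 with GT/M1, 6.40 with GT/M2, 8.53 with GT/M6, 7.82 with GT/M2TAD, 8.55 with siCtrl and 8.74 with siEp300, against 3.28 on MEF. MEF was far below the other 6, whose lowest value was 6.40, and GT/M6, siCtrl and siEp300 were within 0.21 of each other at the top. The differences from MEF were 3.63, 3.13, 5.25, 4.54, 5.27 and 5.46 in that array order. The MEF signal lay among the dimmest probes, with 13.9% of negative controls at or below it. Only siCtrl and siEp300 exceeded the negative-control percentile of their own arrays, and neither exceeded that of MEF, so a bounded fold cannot be given. Msln ordered the Mef2c isoforms differently from Krt19: it was 1.62 higher on GT/M6 than on GT/M1 and 2.12 higher on GT/M6 than on GT/M2. It was 1.41 higher on GT/M2TAD than on GT/M2, with all of these signals below the percentile, and 0.54 higher than the averaged signal of the 3 isoform arrays, which ends that call. On siCtrl it was 0.73 higher than on GT/M2TAD, a difference that passed 2-fold with quantile normalization (1.05) and level-dependent centring (1.01), and 2.15 higher than on GT/M2, the form named in the title. Between siEp300 and siCtrl the difference was 0.19.

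Upk3b and Wt1 lay below the signal floor on every array. Upk3b was 5.51 with GT/M1, 5.55 with GT/M2, 5.69 with GT/M6, 5.45 with GT/M2TAD, 4.88 with siCtrl and 5.30 with siEp300, against 4.62 on MEF. MEF was the lowest array, and the largest difference from it was 1.06 on GT/M6. Wt1 was 3.66, 4.04, 3.28, 3.17, 2.65 and 3.77 on the transduced arrays in the same order, against 3.45 on MEF, which lay in the middle of them. The Wt1 difference of 1.12 between siEp300 and siCtrl involved signals with 25.4% and 6.03% of the negative controls at or below them, and was not called.

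The epithelial adhesion genes were also dim. Cdh1 was 4.20 with GT/M1, 4.81 with GT/M2, 4.43 with GT/M6, 3.93 with GT/M2TAD, 3.76 with siCtrl and 3.64 with siEp300, against 3.87 on MEF. Epcam was 3.25, 3.39, 3.30, 3.01, 3.57 and 3.78 in that order, against 2.39 on MEF. MEF was the lowest array for Epcam and the third lowest for Cdh1. The Epcam difference reached 1.39 with siEp300, but the higher signal had 25.7% of the negative controls at or below it and did not reach the floor.

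Counted over the 9 genes, none was 2-fold lower than MEF on any transduced array. On GT/M1, 3 were 2-fold higher, where 12.5% of all genes were higher and 22.0% were apart in either direction. On GT/M2 it was 2 (13.6% and 21.9% of all genes), 2 again with GT/M6 (13.0% and 21.8%), and 2 with GT/M2TAD (14.0% and 23.5%). With siRNA it was 3 on siCtrl (10.9% and 21.8%) and 3 on siEp300 (13.4% and 22.7%). The lower side held 9.52%, 8.34%, 8.79%, 9.5%, 10.9% and 9.29% of all genes in the same order. Krt19 and Msln were the 2 genes higher in all 6 of these comparisons, which share the MEF array. With the floor raised to the negative-control percentile, Krt19 lost its call on GT/M6, siCtrl and siEp300, and Msln lost its call on the 4 arrays without siRNA. The median difference of the 9 genes ran from 0.065 with GT/M2TAD to 0.92 with GT/M2, beside medians of 0.012 to 0.12 over all genes. Because the genes were chosen with these results known, the counts describe them and support nothing further. Between GT/M2 and GT/M1, Krt19 was higher and Krt18 lower, where 3.29% of all genes were 2-fold apart (1.9% higher and 1.39% lower). Msln was higher and Krt19 lower in the next 3 comparisons. These were GT/M6 against GT/M1, where 0.938% of all genes were 2-fold apart (0.646% higher and 0.292% lower), GT/M6 against GT/M2 (3.56%, with 1.85% higher and 1.71% lower) and GT/M2TAD against GT/M2 (6.3%, with 2.96% higher and 3.33% lower). Krt18 was higher and Krt19 lower on siCtrl than on GT/M2TAD, where 9.42% of all genes were apart (3.04% higher and 6.38% lower). Of the 9 genes, 0 were 2-fold apart between siEp300 and siCtrl, beside 2.32% of all genes (1.93% higher and 0.39% lower). The map of differences sets these 12 comparisons side by side.

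**Figure D2:**
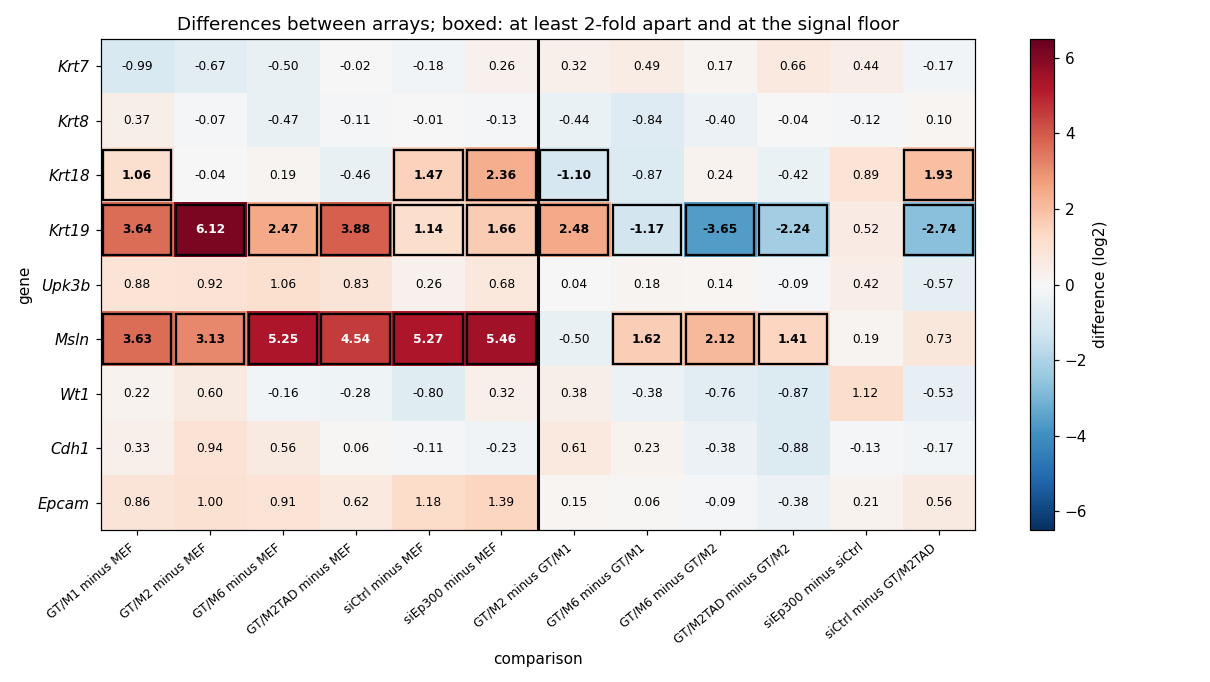
Log2 difference (colour and printed value) of each of the 9 genes (rows) in each of 12 comparisons between single arrays (columns), with the 6 comparisons against MEF left of the thick line. Boxes mark genes at least 2-fold apart whose higher signal reached the floor; Krt19 is boxed in 11 columns, Msln in 9 and Krt18 in 5, of which the Krt18 box for GT/M1 against MEF is lost (0.75 to 0.87), a Krt7 box there is gained, and a Msln box for siCtrl against GT/M2TAD is gained, under other scalings.

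The whole keratin family was then read in the same way. The array measured 47 keratin genes, 25 on chromosome 11 (the type I cluster) and 22 on chromosome 15 (the type II cluster, which also holds Krt18). Of these, 38 lay below the array median on every array, and Krt18 and Krt19 were the 2 that exceeded the negative-control percentile on any array. Against MEF, 1 keratin was 2-fold lower on each transduced array, and the number higher was 5 with GT/M1, 4 with GT/M2, 3 with GT/M6, 3 with GT/M2TAD, 4 with siCtrl and 4 with siEp300. The higher keratins were 6.38% to 10.6% of the family, below the 10.9% to 14.0% of all genes called higher in these comparisons. A call needs a signal at the array median, which 38 of the 47 never reached. The smaller share of the family follows in part from that floor and is a description only. Krt12 was among the higher ones at 1.23 with GT/M1 and 1.03 with GT/M2, and dropped under 2-fold with median centring and quantile normalization on both. The median difference of the 47 keratins ran from -0.070 to 0.16, near those of all genes.

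The single lower keratin was Krt80 on each array, between -2.48 on GT/M2 and -1.17 on siEp300. Krt20, an intestinal and urothelial type I keratin, was higher on all 6, at 3.70, 3.55, 2.81, 3.20, 1.84 and 2.04 in the order GT/M1, GT/M2, GT/M6, GT/M2TAD, siCtrl and siEp300. Its signals ran from 6.61 to 8.48 on the transduced arrays and stood at 4.78 on MEF, all below the negative-control percentile. Krt23 shared with Krt19 its highest signal on GT/M2, at 3.43 above MEF, and was 3.06 higher on GT/M2TAD, from signals no higher than 6.71. Krt79 was 2.77 higher on GT/M1 and 1.65 on GT/M6. Krt222 was 1.42 higher on siCtrl and 1.65 on siEp300, from signals no higher than 5.92.

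**Figure D3:**
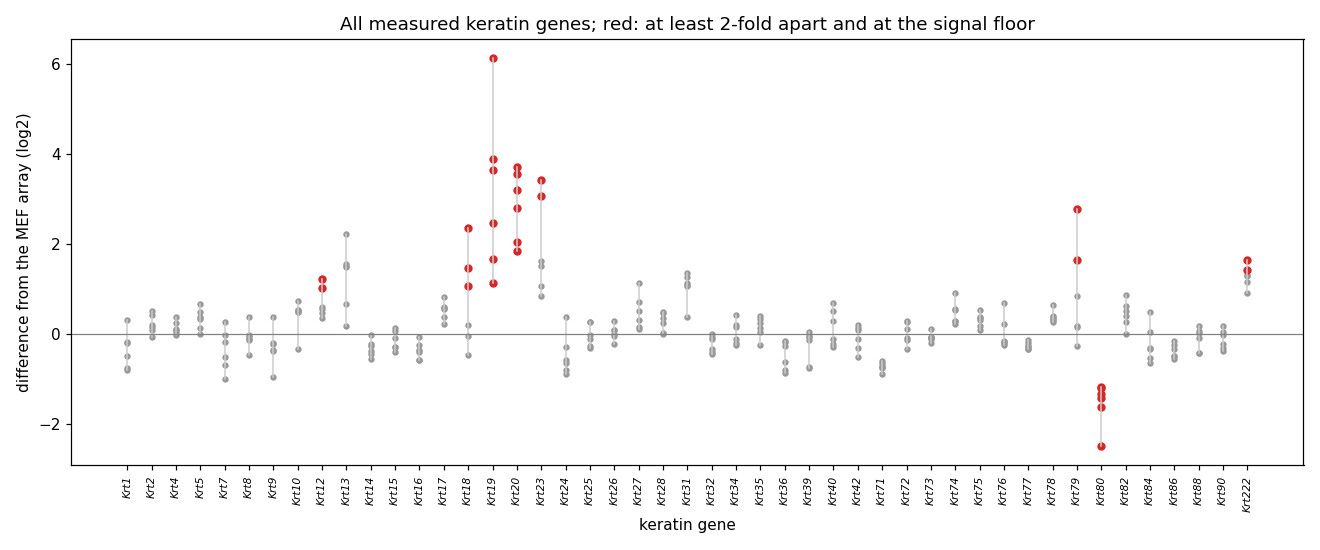
Log2 difference from the MEF array (vertical axis) of the 47 measured keratin genes (horizontal axis), with 6 points per gene, 1 for each transduced array, joined by a line. Red points are at least 2-fold apart at the floor: Krt19 and Krt20 are red and above 0 in all 6, Krt80 is red and below 0 in all 6, and most other keratins stay within 1 of 0.

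The surrounding mesothelial programme was described with a list of 24 genes, 22 of them measured and 7 of those among the 9 genes above. The number 2-fold higher than MEF was 9 with GT/M1, 8 with GT/M2, 8 with GT/M6, 4 with GT/M2TAD, 6 with siCtrl and 7 with siEp300. These were 40.9%, 36.4%, 36.4%, 18.2%, 27.3% and 31.8% of the 22, beside 12.5%, 13.6%, 13.0%, 14.0%, 10.9% and 13.4% of all genes. On GT/M2TAD the share was thus near that of all genes. Krt18 on GT/M1 (0.75 to 0.87) and Gpm6a on GT/M2 (0.93 to 0.94) lost their calls under the 3 other scalings. None of the 22 was called lower, although Sulf1 on GT/M2TAD, at -0.86, passed 2-fold with median or level-dependent centring (-1.12 in both). The list medians were 0.81, 0.50, 0.50, 0.33, 0.11 and 0.56, beside 0.012 to 0.12 for all genes. Upk1b, a tetraspanin uroplakin, was 5.29, 4.39, 5.91, 2.02, 2.38 and 1.83 higher, and exceeded the negative-control percentile with each Mef2c isoform in the absence of siRNA. It was the 1 of 6 uroplakin genes called on these arrays. Efemp1, which encodes the matrix protein fibulin 3, was 5.56, 5.30, 5.61, 3.53, 2.43 and 2.51 higher, from a MEF signal of 11.08 that was itself above the percentile. Aldh1a2, the retinaldehyde dehydrogenase of mesothelium and epicardium, was 2.69 higher with GT/M2, 1.67 with GT/M6 and 1.19 with GT/M1, and like Krt19 it was highest on GT/M2. On GT/M1 that call was lost under the 3 other scalings (0.89 to 1.00). Lrrn4, Bnc1, Cldn15 and Calb2, further genes of this list, stayed at or below 4.69 on all 7 arrays.

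Between GT/M2TAD and GT/M2, 6 of the 22 list genes were 2-fold lower and 1, Msln, was higher (2.96% of all genes were 2-fold higher and 3.33% lower). Upk1b was at -2.36, Krt19 at -2.24, Aldh1a2 at -1.97, the proteoglycan gene Gpc3 at -1.96, Efemp1 at -1.78 and Sulf1 at -1.26. Msln at 1.41 thus went against the other called genes of its list, from signals below the negative-control percentile on both arrays. Set against the averaged signal of GT/M1, GT/M2 and GT/M6 instead, Msln was at 0.54 and Krt19 at -0.20, both under 2-fold. For these genes the contrast therefore holds against GT/M2 alone. The remaining called genes were not read against that average. Between siEp300 and siCtrl 0 of the 22 were called, and their median was 0.33 beside 0.14 for all genes.

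Markers of epicardium, the mesothelial layer of the heart, were read beside Krt19 and Msln. Of 10 such markers, which include Msln, Upk3b and Wt1, 5 were 2-fold higher than MEF on each isoform array without siRNA. On GT/M1 Aldh1a2 lost its call under the 3 other scalings, and on GT/M2 the count was 3 under them. On GT/M2TAD, siCtrl and siEp300 it was 2 each, Msln and Upk1b. Of all genes, 10.9% to 14.0% were called higher in these comparisons. Apart from Tbx18, the called markers were also counted in the mesothelial list. Summed log2 signals of the 10 markers were 55.9 to 66.8 on the transduced arrays and 48.9 on MEF. Without Msln and Upk1b, the other 8 markers summed to 47.2, 47.3, 47.8, 43.3, 40.4 and 40.9 with GT/M1, GT/M2, GT/M6, GT/M2TAD, siCtrl and siEp300, against 41.0 on MEF. Msln and Upk1b, the 2 left out, were the 2 called on the siRNA arrays, and the choice was made after seeing the data. That the sum was not above MEF on those arrays follows in part from this choice and is a description only. On GT/M6, with Msln at 8.53 beside 8.55 on siCtrl and 8.74 on siEp300, the other 8 had their highest sum. Tbx18, an epicardial T-box gene, was 2.39 higher with GT/M1, 2.62 with GT/M6 and 1.02 with GT/M2, the last under 2-fold at 0.69 to 0.72 in the 3 other scalings, and differed by -0.39 with siCtrl and -0.92 with siEp300, the last passing 2-fold in the same 3 scalings (-1.15 to -1.04). Tcf21 lay between 4.02 and 4.40 and Wt1 between 2.65 and 4.04, below the floor on every array. The part of such cells in the signals of Krt19 and Msln was not tested, and in bulk RNA fewer cells of a type and less RNA per cell cannot be told apart. All 7 measured macrophage markers stayed below the negative-control percentile on every array, with summed log2 signals of 31.7 to 40.7 on the transduced arrays and 36.6 on MEF. Lyz2 was nevertheless called 2.19 higher on GT/M1 and 1.67 higher on GT/M6 than on MEF, and 4 of the 7 were called lower on GT/M2 than on GT/M1. Of 8 endothelial markers, summing to 30.6 to 33.7 on the transduced arrays and 37.2 on MEF, Kdr exceeded the percentile on MEF at 8.96 and was called lower on all 6 transduced arrays (-4.82 to -2.01). The part of these cells was not tested either.

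A few epithelial junction genes had signals far above those on MEF. Of 24 measured, 5, 6, 5, 4, 3 and 4 were 2-fold higher on GT/M1, GT/M2, GT/M6, GT/M2TAD, siCtrl and siEp300, and 0 were lower. These were 20.8%, 25.0%, 20.8%, 16.7%, 12.5% and 16.7% of the list, beside 10.9% to 14.0% of all genes, so the shares on GT/M2TAD, siCtrl and siEp300 were near that of all genes. The list medians ran from 0.091 on siCtrl to 0.50 on GT/M2. Dsp encodes desmoplakin, which ties keratin or desmin filaments to the desmosome. It was 11.85, 11.47, 11.79, 11.76, 9.72 and 10.05 higher, from a MEF signal of 3.95 that lay below the negative-control percentile. Jup, the gene of plakoglobin, was 2.50 to 3.46 higher, and F11r, which encodes the junctional adhesion molecule JAM-A, 3.99 to 7.07 higher, from a MEF signal below the percentile. Desmosomes are also a feature of cardiac muscle, and Dsp and Jup are expressed there. The claudins Cldn3, Cldn4, Cldn6 and Cldn7 stayed at or below 4.95 on all arrays, as Cdh1 did at or below 4.81.

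Among 19 measured regulators and proteases of epithelial identity, 6, 5, 5, 3, 4 and 4 were 2-fold higher on the same arrays, and 1, Klf4, was lower on each except GT/M2, where its difference of -0.79 reached -1.12 to -1.04 in the 3 other scalings. The higher genes were 31.6%, 26.3%, 26.3%, 15.8%, 21.1% and 21.1% of the list, beside 10.9% to 14.0% of all genes. On GT/M2TAD the share was thus near the 14.0% of all genes there. The list medians of 0.040 on siCtrl and 0.0035 on siEp300 lay near or below those of all genes, 0.012 and 0.12. Grhl3, a grainyhead-like transcription factor, was 5.94, 5.73, 6.12, 4.15, 1.48 and 2.51 higher, and exceeded the negative-control percentile on the 4 arrays without siRNA but not on MEF or the siRNA arrays. Spint2, a membrane protease inhibitor, was 4.02 to 5.33 higher, though no array exceeded the percentile. Esrp2, an epithelial splicing factor whose GT/M6 call of 1.31 was lost with median centring (0.98), had its largest differences on siCtrl at 2.96 and siEp300 at 2.63. As for Krt18, its 2 highest signals were on the siRNA arrays. Grhl2, Esrp1, Ovol1 and Elf3 stayed at or below 3.91.

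Several mesenchymal factors had lower signals than on MEF. Of 13 measured, 6, 8, 6, 7, 5 and 6 were 2-fold lower than MEF, and 1, Cdh2, was higher on each array. The lower genes were 46.2%, 61.5%, 46.2%, 53.8%, 38.5% and 46.2% of the list, beside 8.34% to 10.9% of all genes called lower. A lower call needs a MEF signal at the floor. On MEF, 8 of the 13 exceeded the negative-control percentile, beside 26.2% of all genes. The larger share thus follows in part from a list of genes that are bright on MEF, and is a description only. Snai2 encodes a repressor of epithelial genes that binds the Snail-type E-box. It was at -4.26, -5.42, -4.21, -5.45, -3.38 and -3.58, with every signal above the negative-control percentile. Snai1 was at -2.81 to -2.15, with no signal above that percentile, and the mesenchymal homeobox gene Prrx1 at -4.34 to -1.11, the last on siCtrl and under 2-fold with quantile normalization (-0.96). Zeb1 differed by between -0.31 and 0.93, and Vim, the gene of vimentin, by between -0.54 and -0.09. N-cadherin, the product of Cdh2 and the cadherin of cardiac muscle and mesenchyme, was 2.41 to 2.75 higher in transcript.

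**Figure D4:**
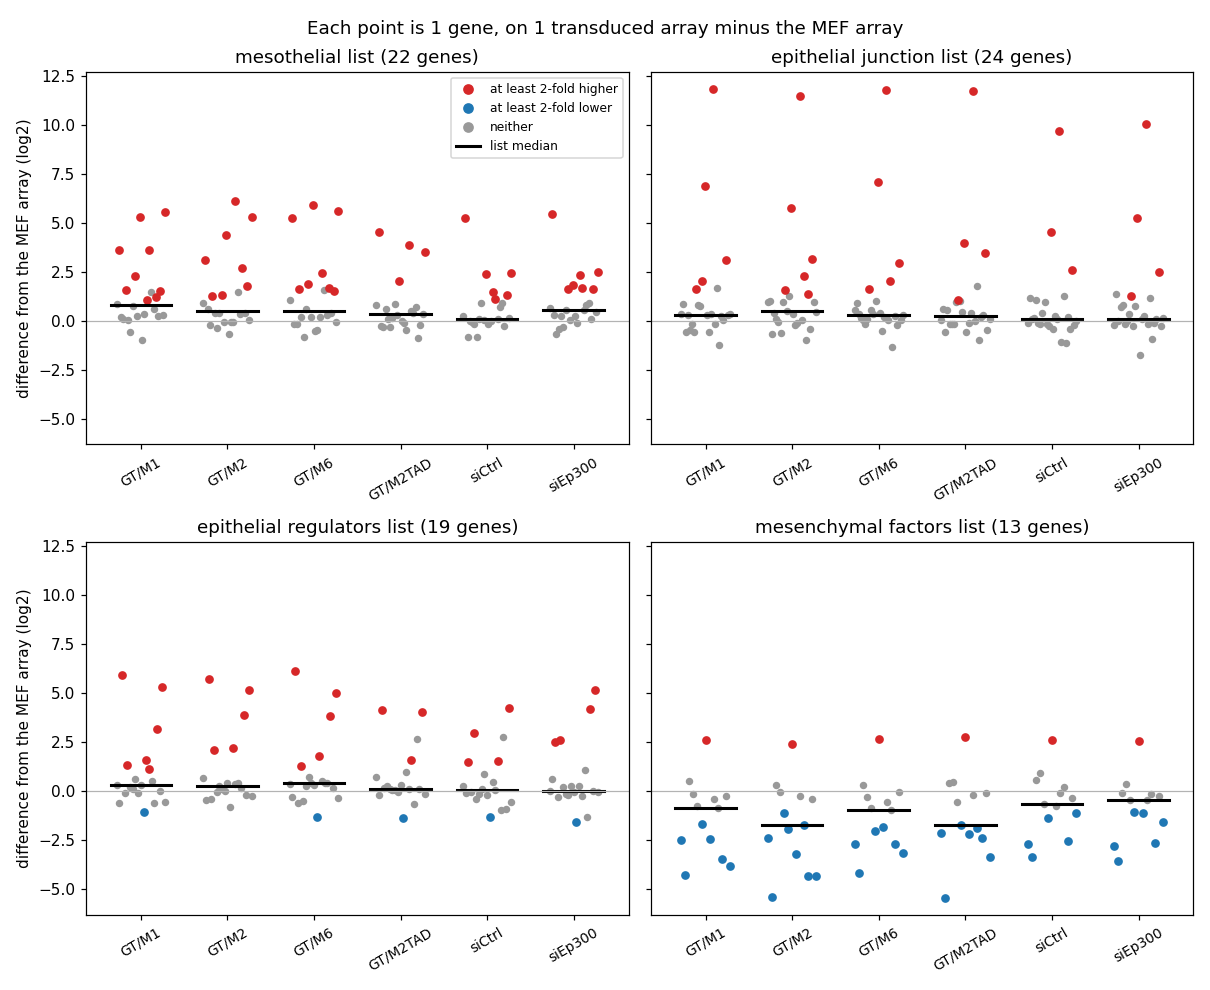
Log2 difference from the MEF array (vertical axis) of every measured gene of 4 lists (panels) on each of the 6 transduced arrays (horizontal axis), 1 point per gene, with black bars at the list medians. Red points are at least 2-fold higher and blue points at least 2-fold lower at the floor; the mesenchymal panel holds 5 to 8 blue points of 13 on each array and 1 red point, Cdh2, and the mesothelial and junction panels hold red points and no blue ones with the scaling as deposited (Sulf1 on GT/M2TAD passes -1 with median or level-dependent centring).

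Other intermediate filaments and keratin-binding proteins give the context of the keratin signals. Of 16 other filament genes, Des and Sync were higher on all 6 arrays. Des, which encodes the muscle filament desmin, was 4.84 to 6.25 higher, and Lmna, a nuclear lamin gene, was -1.93 to -1.39. Of 10 measured keratin-binding or desmosomal partners, 3 or 4 were 2-fold higher on each array and 0 lower. Of all genes, 10.9% to 14.0% were called higher in these comparisons. Dsp and Jup were among the higher partners on every array, and Pkp2 on GT/M2. These were already counted among the junction genes, so the partner count is not separate from that list. Another higher partner on every array was Fam83h, a regulator of keratin filament organisation. It was 3.35, 4.52, 3.43, 3.22, 2.75 and 2.66 higher than MEF and, like Krt19, highest on GT/M2. Its signal there was 8.09, which like its others lay below the negative-control percentile.

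Finally, the genes whose signals ran most like those of each keratin or mesothelial gene were ranked by Pearson correlation over the 7 arrays. The pool was 3187 genes that reached the floor on any array and spanned at least 2 on the log2 scale. The 7 points share arrays, scaling and a MEF array that stands apart, so r is given with and without MEF as a description. Krt19 ran closest to Sorbs3 (r = 0.989, and 0.984 without MEF), Zfp385b (0.988 and 0.986) and Gnptab (0.972 and 0.975). All 3, like Krt19, had their highest signal on GT/M2 and their lowest on MEF. Sorbs3 encodes vinexin, an adaptor protein of cell adhesions, and its signals were 11.95 on GT/M2 and 9.94 on MEF. Msln ran closest to Scel (r = 0.987, and 0.987 without MEF), the gene of the cornified-envelope protein sciellin, then Itgbl1 (0.986 and 0.959) and Fcgrt (0.979 and 0.916). Krt18 ran closest to Mtnr1a (r = 0.929, and 0.923 without MEF), Slc16a12 (0.926 and 0.921) and Igfbp3 (0.911 and 0.931), all highest on siEp300. Krt7 ran closest to the ceramide synthase gene Cers5 (r = 0.980, and 0.978 without MEF), Crmp1 (0.934 and 0.965) and Ehbp1l1 (0.930 and 0.953). The other 5 genes did not reach the floor and were not ranked. Among the genes named as most alike, Zfp385b, Scel, Mtnr1a, Slc16a12 and Crmp1 lay below the negative-control percentile on all 7 arrays. Their correlations therefore rest on dim signals.

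**Figure D5:**
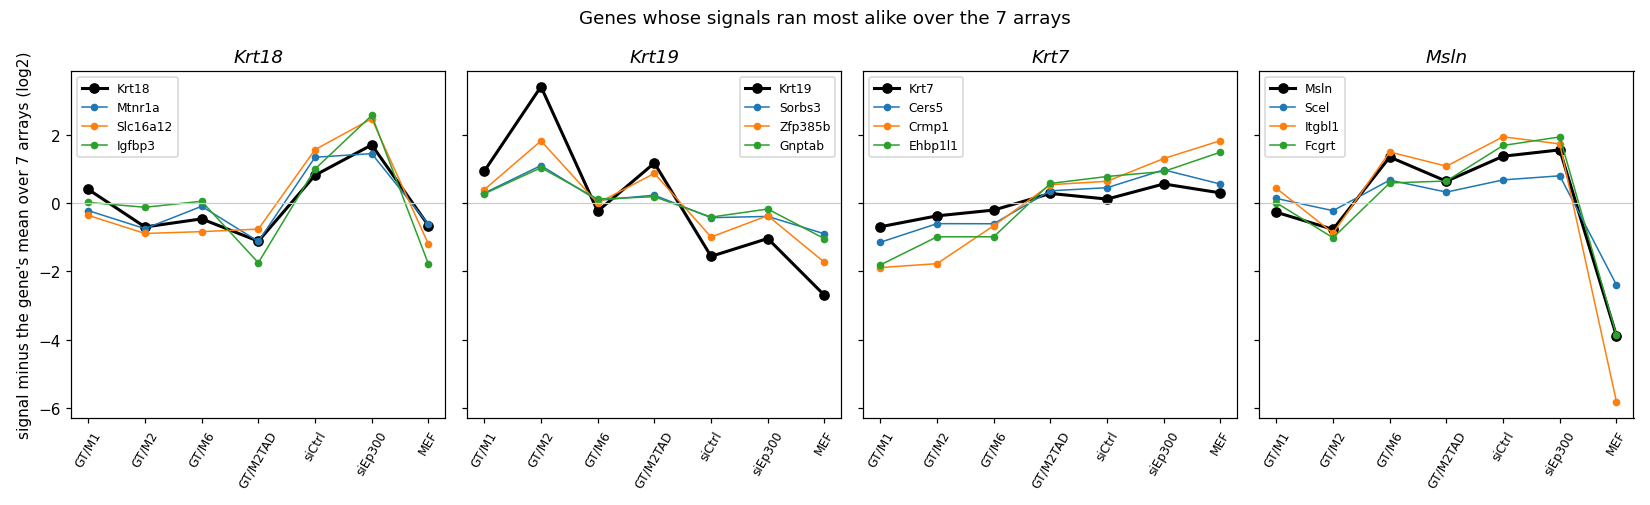
Log2 signal minus each gene's own mean over the 7 arrays (vertical axis) on each array (horizontal axis) for Krt18, Krt19, Krt7 and Msln (black) and the 3 genes that ran most like each (colours). Krt19 and its likes peak on GT/M2, Krt18 and its likes on siEp300, and Msln and its likes drop on MEF.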

How the data were processed

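Per the labels' protocols, RNA of 7 samples, with an RNA integrity number above 7, was labelled from 100 ng and read on 1 array each. For the transduced samples, medium had been replaced 24 h after infection. The deposited log2 values were signals per probe set made by the authors with SST-RMA, per the series text, in Affymetrix Expression Console 1.4, per the submitters' processing notes. The settings of this step and a genome build are not given in the sources used here. Summarising and normalizing across arrays can alter the size of differences near background, in a direction that was not tested. A change common to most genes would not show.

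Of 28846 probe sets, 19572 had 1 gene symbol in the platform annotation, covering 19505 genes; for the 55 genes with several sets, the set with the highest mean was used. Symbols of all 9 genes matched RefSeq by Entrez identifier. Log2 differences between single arrays were computed in Python 3.11.15 with pandas 2.3.3, without a test. The number of arrays limits the precision. The rule of size was checked on simulated data. That simulation used small noise and shifted only genes above the signal floor, by more than the 2-fold limit, so it does not speak for dim signals. Alternatives were quantile normalization, median centring, level-dependent centring (lowess in statsmodels 0.14.6, fraction 0.3), averaging of probe sets, a floor at the negative-control 95th percentile, no floor, a 4-fold threshold and other comparators. An "at least" fold sets the higher signal, itself above that percentile on its array, against the percentile of the other array where the lower signal lies below it.

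The genes and gene lists were chosen with earlier results of these data known. Named genes were the 9 genes on every array, list genes led by those 2-fold apart, keratins called in any comparison, and the 3 genes most like each keratin or mesothelial gene at the floor, without predicted genes. List genes named for low signals, the epithelial and mesothelial markers among them, were picked after their values were seen.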

Additional observations from a re-analysis of the deposited data

How the results depend on the processing

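Quantile normalization, median centring, level-dependent centring and averaging of probe sets left the count of the 9 genes 2-fold apart within 1.5 times its value in all 12 comparisons, although on GT/M1 against MEF the first 3 exchanged Krt18 for Krt7. No called difference changed sign under any alternative. Median centring moved the median of all genes against MEF to between -0.25 and -0.06, where it was 0.01 to 0.12 as deposited. With the floor at the negative-control percentile, the count against MEF was 0 with GT/M6 and 1 with each of GT/M2TAD, GT/M2 and GT/M1, and it was 1 in each of the comparisons of GT/M2 and GT/M6 with GT/M1 and of GT/M6 and GT/M2TAD with GT/M2. Msln lost its call in the 4 comparisons with MEF named here, Krt18 on GT/M1, and Krt19 on GT/M6, siCtrl and siEp300, because the stricter floor removes dim signals. With a 4-fold threshold the count was 1 on siCtrl against MEF, 1 for GT/M2 against GT/M1, 0 for GT/M6 against GT/M1, 1 for GT/M2TAD against GT/M2 and 1 for siCtrl against GT/M2TAD. Without a floor, 1 gene, Wt1, was called between siEp300 and siCtrl. With GT/M2TAD or GT/M2 in place of siCtrl, siEp300 was 2.82 or 2.41 higher for Krt18 and -2.21 or -4.45 for Krt19, so the small differences of these genes between siEp300 and siCtrl hold for that comparator. Msln on siCtrl against GT/M2TAD, at 0.73, passed 2-fold after quantile normalization (1.05) and level-dependent centring (1.01). The comparison of siCtrl with GT/M2, added after seeing the data, gave 1.52 for Krt18, -4.98 for Krt19 and 2.15 for Msln. The sums of epicardial markers without Msln and Upk1b were also added then. For the gene lists, whose scalings were added after seeing the data, the count moved by over 1.5 times for epicardial markers on GT/M2 against MEF (3 in each scaling) and for epithelial regulators between siEp300 and siCtrl (1 in each, without Grhl3, where it was 2). No paired analysis was possible because each group has 1 array. No array could be left out within a group for the same reason.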

Other observations

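The array's 23 background probe sets are grouped by GC content and lie outside all gene counts. On siCtrl and MEF they had identical values in 10 cases, against at most 2 in each of the other 20 pairs of arrays. Over named genes the same arrays shared 8 identical values of 19505, and their correlation across genes was 0.933, so they were not copies of each other.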
